A study of Homo sapiens with 24 samples.

Results

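The comparison described here followed MIA PaCa-2 cells through the second day of CEBPD induction. Its members were chosen by their labels alone, as the 3 libraries of the C/EBPδ-inducible line at 48 h of doxycycline and the 3 libraries of that line at 24 h, which are 6 of the 24 libraries of the series. The whole series holds the C/EBPδ-inducible line and a CTRL line at 0, 8, 24 and 48 h, with 3 libraries in each of 8 groups, and RNA was sequenced after removal of ribosomal RNA. MIA PaCa-2 is an established human cell line from a pancreatic ductal adenocarcinoma. Both groups compared here carried a Tet-On construct with the CEBPD cDNA, which doxycycline switches on, and both were in medium with doxycycline at 2 µg/ml, so they differed in time alone. The CTRL line carried the Tet-On parts without the cDNA and received the same doxycycline for the same times, and its 24 h and 48 h libraries serve as the control for time in culture. The inducible cells came from a small number of clones, and the construct is known to be leaky without doxycycline. Differences between the lines can thus come from the clones as well as from the cDNA, which cannot be told apart here. Nothing in the labels says whether the 3 libraries of a group came from separate cultures grown on different days, so every p value measures the spread between these libraries only.

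CEBPD encodes C/EBPδ, a leucine-zipper transcription factor that binds DNA as a dimer with itself or with other C/EBP proteins and is best known for its roles in differentiation, in the acute-phase response and in slowing cell growth. MIA PaCa-2 is known as a cell line with many mesenchymal features, including abundant vimentin and little E-cadherin. Cells left in one dish for days without splitting also become denser and use up their medium, which is why the CTRL line over the same hours is given beside many results. Where no CTRL value is given, a change can be shared by both lines.

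Library totals in the 6 libraries lay between 16780129 and 22598595 counts on genes. Levels are given as CPM, counts scaled to the library total after TMM normalisation, always in the order replicate 1, 2 and 3. Fold changes are on the log2 scale as 48 h over 24 h with a standard error (SE), and a gene was called a differentially expressed gene (DEG) at a false discovery rate (FDR) under 0.01 in edgeR's quasi-likelihood test. The SE was worked back from that test, as the size of the fold change over the square root of its F value, so it adds nothing to the p value. In bulk RNA, fewer cells with a transcript and less of it in each cell cannot be told apart. The labelled cell type was checked against its markers. SOX9, a ductal progenitor factor, reached 62.9, 64.8 and 65.5 CPM at 24 h, VIM (vimentin) was at least 5372 CPM in every library, and the acinar and islet genes PRSS1, CPA1, CELA3A, AMY2A, PNLIP, INS, GCG and SST had no count in any of the 6. The CFTR gene of duct cells also had no count. Of 14 markers of leukocytes, endothelium and fibroblasts, 8 passed the filter on low counts, and their summed level was 143 to 169 CPM at 24 h and 205 to 213 CPM at 48 h, nearly all of it COL1A2. CD3E had no count and PTPRC at most 1 count in a library.

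CEBPD itself (ENSG00000221869, chromosome 8, 47736913 to 47738164 on the minus strand, GRCh38) was high in both groups but lower at the later time. Its level was 320.2, 302 and 301 CPM at 24 h and 212, 203 and 199 CPM at 48 h. Every 48 h library lay below every 24 h library, and the decrease of 1.52-fold passed the test (log2 fold change -0.61, SE 0.039, adjusted p = 4.53e-10). The mean had been 21.5 CPM at 0 h and 246.3 CPM at 8 h in these cells, so that the 48 h level still lay far above the start. The labels list doxycycline for the 0 h libraries too, and a time of 0 h is read here as no exposure. In the CTRL line CEBPD was 3.39, 3.70 and 3.66 CPM at 24 h and 3.28, 4.34 and 4.42 CPM at 48 h, with a log2 fold change of 0.18 that did not pass (adjusted p = 0.392). The change differed between the lines by -0.74 on the log2 scale (adjusted p = 0.003), a call that was lost in 5 of the 12 fits that left out 1 library, each of them a CTRL library, where CEBPD is low. Reads of the construct and of the endogenous gene cannot be told apart in these counts.

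**Figure D1:**
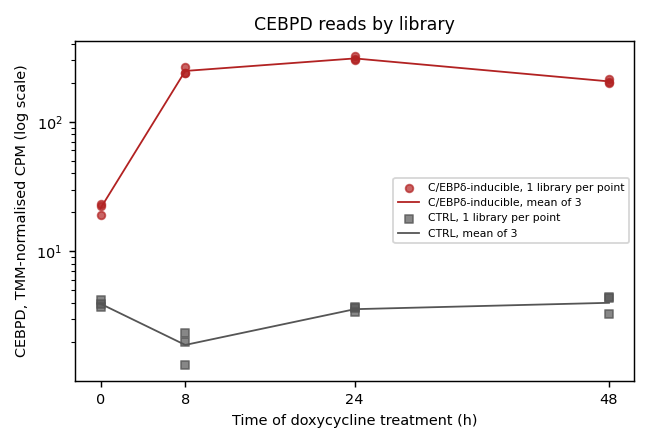
CEBPD in each library (TMM-normalised CPM, log axis) against hours of doxycycline, with circles for the C/EBPδ-inducible line, squares for the CTRL line and lines through the group means of 3 libraries. The inducible line rises from a mean of 21.5 CPM at 0 h to 307.7 CPM at 24 h and lies at 204.6 CPM at 48 h, while the CTRL line stays below 5 CPM.

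None of the other C/EBP family genes was called over the second day. Of 7 genes listed (the 6 family members and the partner DDIT3, which encodes CHOP), 6 were tested, and CEBPD was the 1 DEG. CEBPB, which encodes the close relative C/EBPβ, was 41.4, 39.6 and 40.4 CPM at 24 h and 42.2, 42.8 and 42.5 CPM at 48 h (log2 fold change 0.05, SE 0.051). CEBPA (-0.08), CEBPG (0.04), CEBPZ (0.00) and DDIT3 (0.11) had estimates as small, and CEBPE had at most 1 count in a library.

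Across the transcriptome, the second day called many genes with small changes. Of 15642 genes tested, 3724 (23.8%) were DEGs, 1836 higher at 48 h (11.7% of genes tested) and 1888 lower (12.1%). Counts of list members in the inducible line are to be read against these shares. The median size of a called change was 0.30 on the log2 scale, and 170 DEGs changed by more than 2-fold, 148 of them upward and 22 downward. The median over all genes tested was 0.0055. Libraries of the 2 times did not overlap for 6949 genes (44.4%), so a lack of overlap alone is common here. In the CTRL line over the same hours, 3621 of 15427 genes were DEGs (23.5%), 1880 higher (12.2%) and 1741 lower (11.3%), with a median over all genes of 0.021. The lines share no library. Of the DEGs of the inducible line, 2253 were also called in the same direction in the CTRL line, which is 60.5% of the DEGs of the inducible line and 62.2% of those of the CTRL line, and 15 were called in opposite directions. The difference of the second day between the lines was also tested gene by gene, as the interaction of line and time, and 215 of 16486 genes (1.30%) passed.

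The number of calls depends on how the spread is estimated. An analysis of variance run on each gene alone, which borrows no spread from other genes, called 24 genes in the inducible line. Leaving out 1 library gave 2448 to 3629 DEGs, the fewest without replicate 2 at 48 h. In the CTRL line replicate 1 at 48 h stood apart from its group, with a chi-square per gene of 8.36 and 5.47 against the other libraries where pairs of the inducible groups had 2.09 to 4.07, and without it 4867 genes were called, against 2223 without replicate 2 and 2239 without replicate 1 at 24 h.

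**Figure D2:**
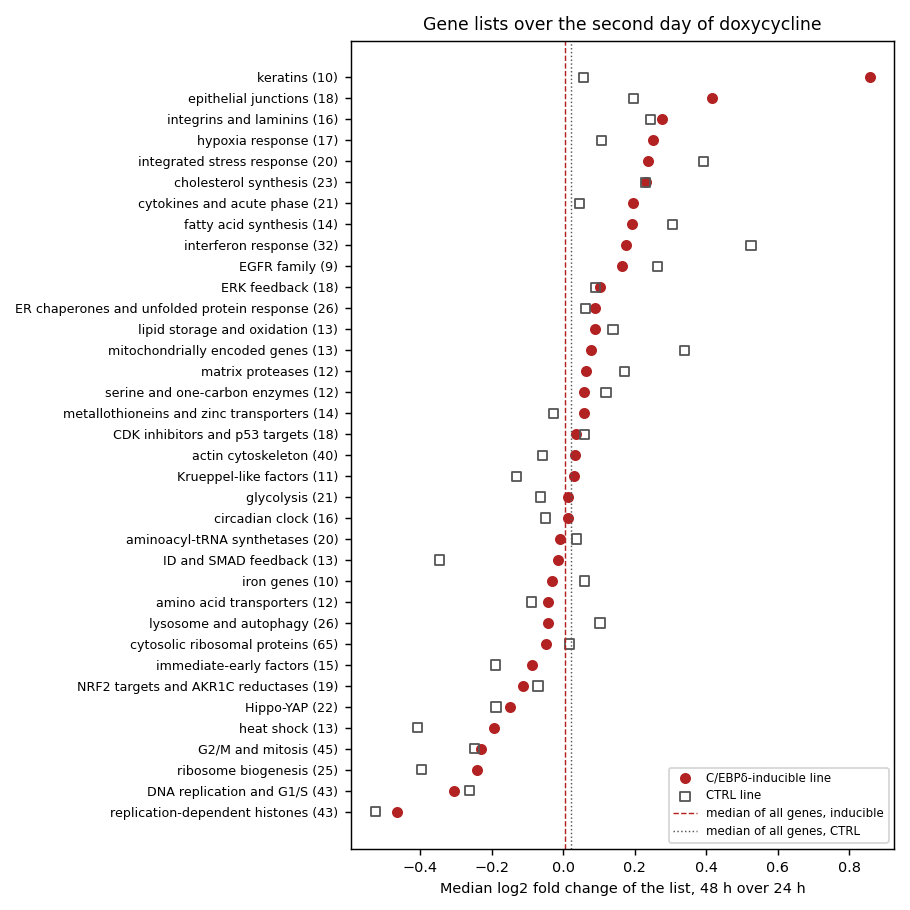
Median log2 fold change, 48 h over 24 h, of each gene list in the C/EBPδ-inducible line (filled circles) and the CTRL line (open squares), with the number of members tested in the inducible line in brackets and dashed and dotted lines at the medians of all genes tested. Replication-dependent histones stand at -0.47 and DNA replication genes at -0.30 in the inducible line, while keratins stand at 0.86 there and at 0.06 in the CTRL line. The keratin medians cover 10 members in the inducible line and 8 in the CTRL line.

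Many genes of the cell cycle fell. The replication-dependent histones, which package newly made DNA and are transcribed mainly in S phase, fell at 40 of 43 members tested and rose at none, with a median log2 fold change of -0.47, beside 12.1% of all genes called lower. H2BC3, an H2B gene (ENSG00000276410, chromosome 6, 26043227 to 26043713 on the minus strand), was 122, 180.0 and 110.0 CPM at 24 h and 69.6, 54.2 and 60.8 CPM at 48 h. All 48 h libraries lay below the lowest 24 h library, a decrease of 2.27-fold (log2 fold change -1.18, SE 0.12, adjusted p = 2.47e-07). H4C12 fell by 0.99, H2AC4 by 0.91, H4C3 by 0.86 and H2BC11 by 0.84 on the log2 scale. Histone genes are near-identical copies of each other, and the counting could have split reads between them, so single members are less certain than the group. The share of all counts on these genes was 0.762 to 0.878% at 24 h and 0.590 to 0.655% at 48 h in the inducible line, and 0.587 to 0.628% and 0.408 to 0.456% in the CTRL line, where 40 of 43 members also fell. No histone gene of the list passed the test of a difference between the lines.

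Many histone promoters carry the octamer, a short element (ATTTGCAT) that is typical of H2B genes. In the 250 bases before the annotated start, searched on both strands, 23 of 48 histone genes with an entry held it, against 1.66% of 27305 promoters of the RefSeq table. Of the 35 histone genes with an entry that fell, 19 held it, and of the 3 tested and not called, 0 did. H2A and H2B genes often lie head to head and share this stretch, so the members are not independent of each other. The stretches of 2 H2B genes that fell are shown to place the element, with the octamer in capitals, from RefSeq on GRCh38.p14, 5′ to 3′ along the gene, H2BC3 at chr6:26043714-26043963 and H2BC11 at chr6:27132796-27133045, both on the minus strand.
H2BC3: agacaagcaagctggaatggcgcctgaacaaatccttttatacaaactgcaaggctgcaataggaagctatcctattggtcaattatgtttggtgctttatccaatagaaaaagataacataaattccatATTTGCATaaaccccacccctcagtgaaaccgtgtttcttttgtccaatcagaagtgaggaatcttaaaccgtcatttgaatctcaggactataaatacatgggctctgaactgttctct
H2BC11: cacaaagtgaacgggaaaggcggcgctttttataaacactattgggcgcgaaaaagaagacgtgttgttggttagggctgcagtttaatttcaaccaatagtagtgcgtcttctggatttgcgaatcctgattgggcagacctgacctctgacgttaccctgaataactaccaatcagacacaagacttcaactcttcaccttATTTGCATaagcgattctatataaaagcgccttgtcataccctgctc

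DNA replication and G1/S genes fell at 31 of 43 members tested and rose at none (median -0.30), and 27 of 43 fell in the CTRL line (median -0.26). TK1, the S-phase thymidine kinase, was 98.3, 92.9 and 92.2 CPM at 24 h and 73.2, 62.4 and 61.7 CPM at 48 h, a fall of 0.54 on the log2 scale (SE 0.057, adjusted p = 3.17e-07). UHRF1, which brings maintenance DNA methylation to replicated DNA, was 225, 204 and 214 CPM at 24 h and 157, 149.6 and 143 CPM at 48 h, a fall of 0.53 (SE 0.044, adjusted p = 1.16e-08). For both genes the libraries of the 2 times did not overlap. CLSPN, which links stalled forks to the checkpoint, fell by 0.51, the transcription factor E2F1 by 0.49 and ORC1 of the origin recognition complex by 0.46 on the log2 scale. All 6 subunits of the replicative helicase were tested, and 5 of them (MCM2, MCM3, MCM4, MCM5 and MCM7) fell by 0.31 to 0.43.

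E2F factors drive many of these genes through sites near their start. The letters TTTGGCGC, TTTCCCGC or TTTGGCGG, on either strand, were found in the 250 bases before the start of 17 of 39 replication genes with an entry and of 2.50% of all 27305 promoters. Among those that fell, 15 of 27 held such a match, and among those tested and not called, 2 of 12 did. The stretches of UHRF1 (chr19:4909251-4909500, plus strand) and E2F1 (chr20:33686386-33686635, minus strand) show such matches in capitals close to the start, again from RefSeq on GRCh38.p14.
UHRF1: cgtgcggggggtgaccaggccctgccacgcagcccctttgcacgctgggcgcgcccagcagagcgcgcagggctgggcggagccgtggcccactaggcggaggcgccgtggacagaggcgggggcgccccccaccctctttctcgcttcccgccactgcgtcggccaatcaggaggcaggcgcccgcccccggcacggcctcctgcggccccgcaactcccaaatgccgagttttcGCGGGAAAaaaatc
E2F1: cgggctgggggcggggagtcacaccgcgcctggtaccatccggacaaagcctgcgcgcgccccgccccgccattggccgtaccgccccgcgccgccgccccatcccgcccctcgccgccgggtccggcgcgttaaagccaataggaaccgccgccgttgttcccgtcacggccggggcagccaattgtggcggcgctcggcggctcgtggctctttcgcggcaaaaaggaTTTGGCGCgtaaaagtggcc

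Genes of G2 and mitosis fell at 30 of 45 members tested and rose at none (median -0.23), and 27 of 45 fell in the CTRL line (median -0.25). KIF20A, a kinesin of the dividing midzone, was 186, 191 and 188 CPM at 24 h and 139, 133 and 125 CPM at 48 h, a fall of 0.53 on the log2 scale (SE 0.042, adjusted p = 8.14e-09). CDC20, the activator of the anaphase-promoting complex, fell by 0.51, its ubiquitin-conjugating partner UBE2S by 0.50, the chromosomal passenger BIRC5 by 0.45 and cyclin CCNA2 by 0.41 on the log2 scale. TOP2A, the topoisomerase of mitotic chromosomes, was 1237, 1316 and 1290.0 CPM at 24 h and 1160.0, 1177 and 1165 CPM at 48 h, a fall of 0.15 (SE 0.029, adjusted p = 0.000252), and fell by 0.15 in the CTRL line. The CHR element of mitotic promoters (TTTGAA) stood in the 250 bases before the start of 20 of 38 of these genes and of 13.6% of all promoters, at 13 of 25 that fell and 7 of 13 tested and not called. Among CDK inhibitors and p53 targets, 3 of 18 rose (16.7%) and 4 fell (22.2%), beside 11.7% and 12.1% of all genes tested. In the CTRL line 2 of 18 of them rose and 2 fell. TP53INP1, a p53 target of autophagy and cell death, rose by 0.97 and the CDK inhibitor CDKN1B by 0.32, while GADD45B fell by 0.64 and GADD45A by 0.45 on the log2 scale. CDKN1A (p21) was 26.4, 24.1 and 27.4 CPM at 24 h and 30.7, 30.6 and 29.7 CPM at 48 h and missed the threshold (log2 fold change 0.21, adjusted p = 0.0119).

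Genes that build ribosomes fell with the cell cycle genes. Of 25 ribosome biogenesis factors tested, 21 fell and none rose (median -0.24), and all 25 fell in the CTRL line (median -0.40). NOP56, a core protein of the nucleolar particles that methylate ribosomal RNA, was 388, 392 and 377 CPM at 24 h and 290.1, 289 and 282 CPM at 48 h, a fall of 0.45 on the log2 scale (SE 0.034, adjusted p = 4.91e-09). The structural proteins of the ribosome moved less, with 6 of 65 lower and 1 (RPL22, 0.22) higher (median -0.05). Their share called lower, 9.23%, lay near the 12.1% of all genes tested. The number lower was 3 without replicate 2 and 10 without replicate 1 at 48 h. The heat shock list, chaperones and cochaperones driven by HSF1, fell at 10 of 13 members and rose at none (median -0.19), and fell at 12 of 13 in the CTRL line (median -0.41). HSPA8, the constitutive HSP70, was 2991, 3075 and 2987 CPM at 24 h and 2372, 2337 and 2287 CPM at 48 h, a fall of 0.39 (SE 0.026, adjusted p = 9.43e-10). It fell by 0.58 in the CTRL line, and this difference of 0.23 between the lines passed the test (adjusted p = 0.00189), as did that of 0.21 for HSP90AA1. A heat shock element (alternating GAA and TTC units, either strand) was found before the start of 2 of 14 genes of the list, HSPA8 among them, and of 0.439% of all promoters.

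Lipid synthesis genes moved in the opposite direction. The cholesterol synthesis list, enzymes of the pathway with their SREBP regulators, rose at 14 of 23 members tested and fell at none (median 0.23), beside 11.7% of all genes called higher. Of the same genes, 9 rose and 1 fell in the CTRL line, with the same median of 0.23. MSMO1, a sterol methyl oxidase (ENSG00000052802, chromosome 4, 165327667 to 165343164), was 14.7, 15.3 and 15.7 CPM at 24 h and 34.3, 35.3 and 37.5 CPM at 48 h, an increase of 2.31-fold (log2 fold change 1.21, SE 0.065, adjusted p = 2.83e-11). TM7SF2 rose by 0.80, SC5D by 0.58 and INSIG1, which holds SREBP precursors in the endoplasmic reticulum, by 0.52 on the log2 scale. HMGCS1, a synthase early in the pathway, was 41.1, 44.5 and 44.5 CPM at 24 h and 71.1, 70.7 and 72.0 CPM at 48 h, an increase of 0.70 (SE 0.048, adjusted p = 1.35e-09). It rose by 0.28 in the CTRL line, and the difference of 0.46 between the lines passed the test (adjusted p = 0.0017).

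SREBP proteins bind the sterol regulatory element. The letters TCACNCCAC, on either strand, stood in the 250 bases before the start of 1 of 18 cholesterol genes with an entry, SREBF2 itself, and of 0.875% of all 27305 promoters. SREBF2, the gene of the master regulator of this pathway, was 106, 95.9 and 103 CPM at 24 h and 141, 142 and 140.4 CPM at 48 h, a rise of 0.45 on the log2 scale (SE 0.042, adjusted p = 6.64e-08), and rose by 0.53 in the CTRL line. Its stretch at chr22:41832855-41833104 on the plus strand is printed with the match in capitals (RefSeq, GRCh38.p14).
SREBF2: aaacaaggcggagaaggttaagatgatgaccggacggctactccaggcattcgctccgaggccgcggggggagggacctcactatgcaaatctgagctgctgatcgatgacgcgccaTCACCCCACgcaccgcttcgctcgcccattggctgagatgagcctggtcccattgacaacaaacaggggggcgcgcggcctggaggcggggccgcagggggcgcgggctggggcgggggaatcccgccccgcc

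The fatty acid synthesis list rose at 9 of 14 members tested, and ELOVL1 (-0.20) was the 1 that fell (median 0.19, CTRL line 0.31). Without replicate 3 at 24 h or replicate 2 at 48 h, 5 members rose, and in the latter fit none fell. SCD, the stearoyl-CoA desaturase that makes monounsaturated fatty acids (ENSG00000099194, chromosome 10, 100347233 to 100364826), was 1202, 1220.0 and 1247 CPM at 24 h and 2617, 2666 and 2612 CPM at 48 h. This rise of 2.12-fold (log2 fold change 1.09, SE 0.025, adjusted p = 5.19e-18) stood beside one of 1.16 on the log2 scale in the CTRL line. ELOVL6 rose by 0.40, the carboxylase ACACA by 0.34 and the synthase FASN by 0.22. Of 13 genes for lipid storage and oxidation, 4 rose and 3 fell. CPT1A, the gate of mitochondrial fatty acid uptake, fell by 0.60 and PLIN2, which coats lipid droplets, by 0.38, against -0.13 and 0.10 in the CTRL line, and both differed between the lines (by -0.43 and -0.45, adjusted p = 0.00608 and 0.00346).

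Stress and hypoxia genes rose more often than they fell. In the integrated stress response list, targets of ATF4 and CHOP, 10 of 20 members rose and 2 fell (median 0.24, CTRL line 0.39). GDF15, a secreted stress cytokine, was 6.78, 8.27 and 7.93 CPM at 24 h and 12.1, 14.7 and 14.7 CPM at 48 h (log2 fold change 0.83, SE 0.10, adjusted p = 1.63e-06), and the other increases named by rule were NUPR1 (0.96), DDIT4 (0.60) and TRIB3 (0.50). The call of NUPR1, a gene near 1 CPM at 24 h, was lost in 3 of 6 fits that left out 1 library. ATF4 itself did not pass (0.11, adjusted p = 0.0294), PPP1R15A, the phosphatase subunit that ends the response, fell by 0.45, and the C/EBP-ATF element (TGATGNAA, either strand) stood before 0 of 7 list genes that rose and 4 of 10 that were tested and did not rise, against 3.19% of all promoters. Hypoxia response genes rose at 8 of 17 members, with ADM (-0.37) the 1 that fell (median 0.25, CTRL line 0.11). They included INSIG2 (0.56), the mitophagy receptor BNIP3L (0.53), the pyruvate dehydrogenase kinase PDK1 (0.47) and VEGFA (0.42), whereas CA9, a classical hypoxia marker, had at most 2 counts in a library.

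Of 21 glycolysis genes, 6 rose and 5 fell, or 8 without replicate 1 at 48 h. ALDOC, an aldolase, was 16.8, 16.1 and 16.6 CPM at 24 h and 40.9, 40.4 and 40.6 CPM at 48 h, a rise of 2.43-fold (log2 fold change 1.28, SE 0.060, adjusted p = 3.18e-12) beside 1.45 in the CTRL line. HK2, a hexokinase, fell by 0.26 in the inducible line and by 0.58 in the CTRL line, and the lines differed by 0.36 (adjusted p = 0.000521). Among amino acid transporters, 4 of 12 rose, led by SLC1A1 (0.88) and SLC43A1 (0.78), and 3 fell, with the calls of these transporters lost in 1 and 2 of 6 fits that left out 1 library. Over all genes tested, 11.7% were called higher and 12.1% lower. Of the serine and one-carbon enzymes, 2 of 12 rose (16.7%) and 4 fell (33.3%), and of the aminoacyl-tRNA synthetases, 4 of 20 rose and 4 fell. Of the chaperones of the endoplasmic reticulum, 8 of 26 rose and 2 fell. Without replicate 2 at 48 h, 2 transporters rose and 2 synthetases fell. CREB3L3, a membrane-bound transcription factor of the last list, was 0.947, 1.14 and 1.29 CPM at 24 h and 3.11, 3.08 and 2.73 CPM at 48 h (log2 fold change 1.37, adjusted p = 2.35e-05).

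Keratins, the intermediate filaments of epithelia, rose at 7 of 10 members tested and fell at none (median 0.86), while in the CTRL line 1 of 8 rose and 3 fell (median 0.06). KRT17, 1 of the 7, had 2, 1 and 0 counts at 24 h and passed the filter on low counts by its 48 h counts. It was not tested in the CTRL line alone, so the medians of the lines cover different members. KRT81, a hair keratin (ENSG00000205426, chromosome 12, 52285913 to 52291534 on the minus strand), was 51.3, 49.5 and 51.2 CPM at 24 h and 120.2, 120.5 and 118 CPM at 48 h. The rise of 2.33-fold (log2 fold change 1.22, SE 0.042, adjusted p = 1.23e-14) came without overlap of the groups, and no CTRL library at these times exceeded 0.924 CPM. Its close copy KRT86 rose by 0.63 and may share reads with it. KRT15, of basal and progenitor cells, was 1.55, 1.66 and 2.05 CPM at 24 h and 5.31, 5.23 and 6.16 CPM at 48 h (log2 fold change 1.63, SE 0.16, adjusted p = 1.33e-07), and in the CTRL line it rose by 1.07 from a higher level.

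KRT19 and KRT18, keratins of simple and ductal epithelia, rose by 0.65 and 0.21 in the inducible line. KRT18 was 68.5, 69.3 and 74.8 CPM at 24 h and 84.4, 81.4 and 83.9 CPM at 48 h, whereas in the CTRL line it stood near 1000 CPM and fell by 0.16, and the lines differed by 0.41 (adjusted p = 5.19e-05). KRT80 was not called in the inducible line (-0.01) and fell by 0.77 in the CTRL line, a difference of 0.80 (adjusted p = 1.48e-06). KRT8, the partner of KRT18, was not called in the inducible line (0.00, adjusted p = 0.984).

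KRT17 and KRT13 were low. KRT13, a keratin of mucosal epithelia, was 0.548, 0.333 and 0.178 CPM at 24 h and 1.81, 1.01 and 1.22 CPM at 48 h (log2 fold change 1.90, SE 0.38, adjusted p = 0.000505). KRT17 (ENSG00000128422, chromosome 17, 41619442 to 41624842 on the minus strand) had 2, 1 and 0 counts at 24 h and 19, 29 and 17 counts at 48 h, so that it was at least 7.83-fold higher at 48 h, set against a floor of 3 counts per library. Its counts were not orderly elsewhere in the series, with 3, 57 and 59 at 8 h in this line and 3, 2 and 23 in the CTRL line at 24 h. The squamous keratins KRT5, KRT6A and KRT14, picked out after their values were seen, did not pass the filter on low counts. KRT5 had 2, 0 and 1 counts at 24 h and 3, 102 and 97 counts at 48 h, KRT6A had 2, 0 and 0 against 1, 17 and 33, and KRT14 had 1, 0 and 1 against 0, 54 and 3. All 3 were thus near 0 in replicate 1 at 48 h and present in replicate 2 or 3. Without the filter, 11 keratins were called higher. Counts were uneven at 8 h as well, when KRT5 had 0, 40 and 82 counts, KRT6A 0, 8 and 126, and KRT14 3, 45 and 10. Cadherins of squamous epithelia, also picked out after their values were seen, followed in part. DSG3 (desmoglein 3) had 1, 33 and 39 counts at 8 h, 0, 9 and 0 at 24 h and 2, 12 and 21 at 48 h, and CDH3 (P-cadherin) 7, 14 and 36, then 1, 1 and 3, then 7, 13 and 23. FAT2 had 6, 10 and 61 counts at 8 h, 13, 13 and 16 at 24 h and 64, 49 and 168 at 48 h, highest in replicate 3 at each time. The part of RNA from other cells in the increases of KRT17 and FAT2 was not tested.

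Cell junction genes rose at 8 of 18 members tested and fell at none (median 0.42), and at 5 of 15 in the CTRL line (median 0.20). With 1 library left out 4 to 11 rose, the fewest without replicate 3 at 48 h, where 1 member also fell. DSP, the desmosomal plaque protein desmoplakin, was 16.5, 16.4 and 16.2 CPM at 24 h and 26.7, 30.1 and 29.9 CPM at 48 h, a rise of 0.80 (SE 0.067, adjusted p = 1.45e-08) beside 0.86 in the CTRL line. JUP, which joins desmosomes and adherens junctions, rose by 0.72, the tight junction protein OCLN by 0.57 (lost in 2 of 6 fits that left out 1 library) and CLDN4 by 0.47. CDH1, which encodes E-cadherin, stood at 1.40, 2.14 and 1.74 CPM at 24 h and 4.80, 2.29 and 4.13 CPM at 48 h. The groups did not overlap, the increase was 2.05-fold (log2 fold change 1.03, SE 0.24, adjusted p = 0.00208), and the call was lost in 3 of 6 fits that left out 1 library. In the CTRL line CDH1 lay between 0.0993 and 1.94 CPM with no call, and the difference between the lines was not called (adjusted p = 0.499). EPCAM, an epithelial surface marker, was low and uneven, with 0.249, 1.85 and 0.0446 CPM at 24 h and 1.02, 0.264 and 0.523 CPM at 48 h.

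Of 14 tested genes of a panel for epithelial-mesenchymal transition adapted from the study, CDH1 and SNAI2 rose and VIM fell. These shares (14.3% higher and 7.14% lower) lay near those of all genes tested (11.7% and 12.1%). With 1 library left out, 0 to 2 members rose and 0 to 1 fell. The study prints SCD1, an older name of SCD, among its epithelial markers. SDC1, which encodes syndecan 1, was entered here in its place and was not called (0.02, adjusted p = 0.849), while SCD rose as given above. With SCD in that place, the share called higher would be larger than 14.3%. SNAI2, which encodes the repressor Slug, was 2.94, 3.09 and 3.12 CPM at 24 h and 4.80, 4.53 and 4.36 CPM at 48 h (log2 fold change 0.56, adjusted p = 0.00352), and its call was lost in 5 of 6 fits that left out 1 library. VIM was 5717, 5709 and 5649 CPM at 24 h and 5405, 5442 and 5372 CPM at 48 h, a fall of 0.09 (SE 0.022, adjusted p = 0.00248) that was lost without replicate 2 at 48 h. ZEB1 (0.04) and SNAI1 (-0.05) were not called, and CDH2, which encodes N-cadherin, had at most 0.223 CPM.

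Integrin and laminin genes rose at 8 of 16 members tested and fell at none (median 0.27, CTRL line 0.24). ITGB4, the β4 integrin of hemidesmosomes and also 1 of 7 migration genes taken from the study, was 22.0, 22.8 and 22.0 CPM at 24 h and 32.5, 30.2 and 34.1 CPM at 48 h (log2 fold change 0.51, SE 0.065, adjusted p = 3.57e-06), with 0.52 in the CTRL line. Its partner ITGA6 rose by 0.46, ITGB5 by 0.43 and ITGA3 by 0.36. Of the other migration genes, MYPN, a sarcomere protein that binds actin filaments, fell by 0.53, the receptor tyrosine kinase AXL by 0.16 and the transcription factor ETS1 by 0.14. MYPN was 70.6, 69.9 and 69.2 CPM at 24 h and 52.9, 45.4 and 49.8 CPM at 48 h, its estimate in the CTRL line was -0.09, and the lines differed by -0.40 (adjusted p = 0.00619). The calls of AXL and ETS1 were lost in 2 and 5 of 6 fits that left out 1 library. EGFR (0.00), NET1 (0.03) and GSN (0.20, adjusted p = 0.0249) were not called. The study chose these genes on libraries of this series, so the list is no independent evidence of a direction.

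**Figure D3:**
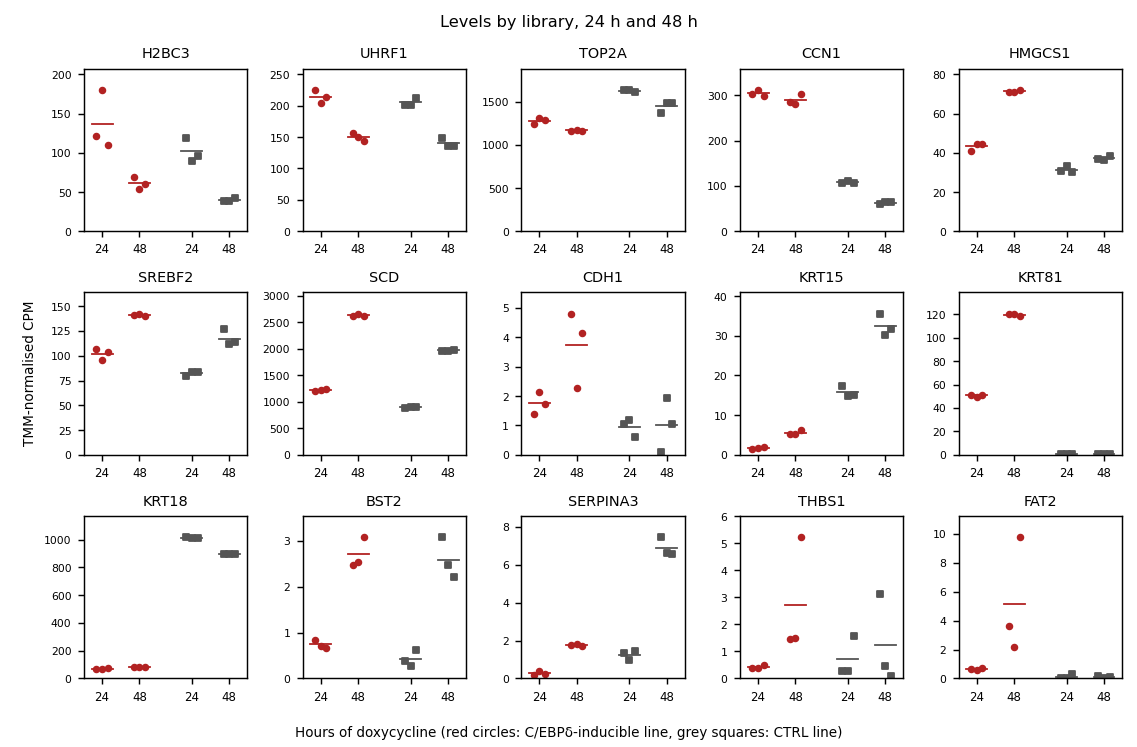
Levels in each library (TMM-normalised CPM, axes from 0) at 24 h and 48 h in the C/EBPδ-inducible line (red circles) and the CTRL line (grey squares), with bars at the group means, for 15 genes described in the text. H2BC3, UHRF1 and TOP2A are lower at 48 h and HMGCS1, SREBF2, SCD, KRT15 and SERPINA3 higher in both lines, while 1 library stands far above the others at 48 h for FAT2 and THBS1.

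Actin cytoskeleton genes split, with 11 of 40 higher and 9 lower (median 0.03), or 5 lower without replicate 2 at 48 h. VCL, vinculin of focal adhesions, was 806, 797 and 806 CPM at 24 h and 1030.0, 1063 and 1011 CPM at 48 h, a rise of 0.35 (SE 0.028, adjusted p = 8.44e-09). CALD1 rose by 0.35, the myosin light chain MYL9 by 0.33 and TAGLN by 0.33, while TAGLN2 fell by 0.46 and ZYX by 0.25. The call of TAGLN was lost in 3 of 6 fits that left out 1 library. ACTB was not called (-0.03), whereas ACTG1 fell by 0.12. Of 41 tested in the CTRL line, 4 rose and 13 fell, and for TAGLN, VCL, VASP, EZR, ACTG1 and DIAPH1 the lines differed with the inducible line higher.

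Targets of the Hippo-YAP pathway, which reads cell density and tension, fell at 10 of 22 members and rose at 1 (median -0.15), and fell at 7 of 21 in the CTRL line (median -0.19). Without replicate 2 at 48 h, 4 members fell in the inducible line. AMOTL2, a YAP-binding angiomotin, was 263, 254 and 254 CPM at 24 h and 174, 167 and 165 CPM at 48 h, a fall of 0.63 (SE 0.038, adjusted p = 2.26e-10). TEAD4, a DNA-binding partner of YAP, fell by 0.35, and AMOTL1 rose by 0.35. CCN1, a standard YAP readout, was not called in the inducible line (-0.09) and fell by 0.76 in the CTRL line, a difference of 0.71 (adjusted p = 1.48e-06). In the ID and SMAD feedback list, readouts of BMP and TGF-β signalling, 1 of 13 rose and 2 fell (SMAD6 by 0.68 and SMAD7 by 0.60), against 1 and 6 in the CTRL line. The shares in the inducible line (7.69% higher and 15.4% lower) lay near the 11.7% and 12.1% of all genes tested. The call of SMAD7 was lost in 5 of 6 fits that left out 1 library. ID2, an inhibitor of helix-loop-helix factors, was 26.1, 31.0 and 32.5 CPM at 24 h and 29.8, 29.5 and 30.7 CPM at 48 h, and fell by 0.96 in the CTRL line, a difference of 0.99 between the lines (adjusted p = 4.99e-05). ID3 also differed between the lines, by 0.40.

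Immediate-early factors gave 5 increases and 3 decreases among 15 tested, against 2 and 5 among 14 in the CTRL line. EGR1 was 75.0, 80.1 and 76.4 CPM at 24 h and 107, 127 and 117 CPM at 48 h (log2 fold change 0.58, SE 0.050, adjusted p = 1.79e-08), IER3 rose by 0.63 and JUND by 0.61, while FOSL1 fell by 0.46, FOSL2 by 0.35 and JUN by 0.23. In the ERK feedback list, 6 of 18 rose, with ETV1 (0.77), SPRY1 (0.30) and PHLDA1 (0.30) in front, and ETS1 was the 1 that fell. Of the ERK feedback genes in the CTRL line, 5 of 18 rose and 4 fell. Of 9 EGFR family receptors and ligands, the receptors ERBB3 (0.97) and ERBB2 (0.27) and the ligand AREG (0.40) rose and none fell. The call of ERBB2 was lost in 1 of 6 fits that left out 1 library. Of the EGFR family genes in the CTRL line, 3 of 8 tested rose and 2 fell.

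Of 12 matrix proteases and their regulators, 3 rose and MMP1 fell (-1.20, a call lost in 3 of 6 fits that left out 1 library). PLAU, the urokinase plasminogen activator, was 75.6, 70.3 and 76.1 CPM at 24 h and 109.8, 116 and 112 CPM at 48 h (log2 fold change 0.59, SE 0.043, adjusted p = 2.6e-09), and rose more than in the CTRL line by 0.46 (adjusted p = 0.000792). The tissue-type activator PLAT was 0.499, 0.428 and 0.178 CPM at 24 h and 3.50, 1.76 and 1.92 CPM at 48 h (log2 fold change 2.67, adjusted p = 7.7e-06), with 1.98 in the CTRL line. Of 21 cytokine and acute-phase genes, 6 rose and 2 fell (median 0.19), against 0 and 1 of 14 in the CTRL line. Fewer members passed the filter on low counts in the CTRL line, so these counts cover different members. Of 23 members in the test of a difference between the lines, 0 passed. ORM1, an acute-phase glycoprotein and known C/EBP target, was 3.84, 2.71 and 3.16 CPM at 24 h and 5.53, 7.56 and 6.92 CPM at 48 h (log2 fold change 1.04, SE 0.15, adjusted p = 1.31e-05). The chemokine receptor CCR1 (1.40), the anaphylatoxin receptor C3AR1 (1.12) and IL1B (0.69) also rose from at most 3.47 CPM at 24 h. CCR1 and C3AR1 had no count in any CTRL library at 24 h or 48 h, and ORM1 and IL1B did not exceed 0.105 CPM there. The call of C3AR1 was lost in 1 of 6 fits that left out 1 library. CXCL1 fell by 0.32.

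Of the interferon response genes in the inducible line, 7 of 32 rose and 2 fell (median 0.17), and in the CTRL line 16 of 28 rose and none fell (median 0.53). The difference between the lines passed the test at 4 of 34 members, each lower in the inducible line, and 30 were not called. IFITM1, a membrane protein that blocks viral entry, was 7.18, 7.18 and 6.68 CPM at 24 h and 10.2, 11.9 and 11.8 CPM at 48 h, a rise of 0.67 (SE 0.097, adjusted p = 1.5e-05), against 1.27 in the CTRL line, and the lines differed by -0.56 (adjusted p = 0.00954). B2M, the light chain of MHC class I, fell by 0.23 in the inducible line and rose by 0.27 in the CTRL line (difference -0.46, adjusted p = 0.000316). IRF1 and IFIT1 were not called in the inducible line and rose by 0.65 and 0.61 in the CTRL line, with differences of -0.70 and -0.53. IFITM2 (0.63), IFITM3 (0.40) and TAP2 (-0.41) were the other members named, and the IFITM genes are close copies.

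By rule, the 15 largest changes in each direction were also named, all with libraries that did not overlap and at least 1 CPM in the higher group. The increases were KRT17, FAT2, IL21R, PLAT, SERPINA3, THBS1, CDH5, ALCAM, MMRN2, EPPK1, KRT13, CDH23, BST2, PADI2 and SCNN1A. IL21R, the receptor of interleukin 21, was 0.549, 0.571 and 0.579 CPM at 24 h and 3.44, 4.09 and 3.78 CPM at 48 h (log2 fold change 2.71, SE 0.22, adjusted p = 1.13e-08). In the CTRL line IL21R had 1, 1 and 0 counts at 24 h and 18, 8 and 14 counts at 48 h. MMRN2, an extracellular matrix protein first known from endothelium, was 3.79, 3.33 and 4.06 CPM at 24 h and 13.7, 16.2 and 13.5 CPM at 48 h (log2 fold change 1.94, SE 0.11, adjusted p = 7.18e-11). SERPINA3, an acute-phase protease inhibitor, was 0.200, 0.380 and 0.223 CPM at 24 h and 1.751, 1.80 and 1.69 CPM at 48 h, a rise of 2.66, and it rose by 2.50 in the CTRL line. SCNN1A, the α subunit of the epithelial sodium channel, rose by 1.69 and BST2 (tetherin) by 1.84, beside 0.97 and 2.62 in the CTRL line. FAT2, a cadherin of squamous epithelia, was 0.648, 0.618 and 0.713 CPM at 24 h and 3.61, 2.15 and 9.76 CPM at 48 h and THBS1 (thrombospondin 1) 1.47, 1.5 and 5.23 CPM, so that replicate 3 stood highest for both. The call of PADI2 was lost in 2 of 6 fits that left out 1 library.

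CDH5, the cadherin of endothelium, had 12, 7 and 9 counts at 24 h and 39, 44 and 39 counts at 48 h, a rise of 2.23 on the log2 scale (adjusted p = 3.95e-06). Beside it, the endothelial genes PECAM1 and VWF had at most 6 and 3 counts in a library. COL3A1 also rose among the markers of other cell types (1.09), as did COL1A2 (0.38), and LYZ fell (-1.80) with 48, 41 and 9 counts at 24 h. The calls of COL3A1 and LYZ were each lost in 4 of 6 fits that left out 1 library.

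The 15 largest decreases were ALDH1A1, SMG1P4, SNORD46, RN7SKP230, H2BC3, RN7SL2, PKP4P1, H4C12, RN7SKP185, H2AC4, MROH6, OSGIN1, H2AC15, H1-6 and CFAP251. Histones, small structured RNAs and pseudogenes held 11 of these places, and the calls of SMG1P4, PKP4P1 and CFAP251 were lost in 2, 5 and 4 of 6 fits that left out 1 library. SNORD46, a small nucleolar RNA, was 18.1, 16 and 11.9 CPM at 24 h and 7.06, 4.75 and 5.35 CPM at 48 h (log2 fold change -1.45, SE 0.15, adjusted p = 1.83e-07). Its log2 fold change in the CTRL line was -1.86. Of 39 genes classed as miscellaneous RNA, mostly copies of 7SK and 7SL RNA that cannot be told apart by their reads, 12 fell and none rose (median -0.69). Their share of counts was 0.281 to 0.427% at 24 h and 0.202 to 0.232% at 48 h in the inducible line and 0.244 to 0.399% and 0.218 to 0.234% in the CTRL line. OSGIN1, a stress-induced inhibitor of growth, was 14.96, 13.4 and 15.5 CPM at 24 h and 8.98, 7.39 and 7.73 CPM at 48 h (log2 fold change -0.89, SE 0.097, adjusted p = 4.44e-07). The CTRL line had a log2 fold change of -0.96 for OSGIN1.

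ALDH1A1, a retinal dehydrogenase (ENSG00000165092, chromosome 9, 72900671 to 73080442 on the minus strand), had the largest decrease and a pattern of its own. It was 1.60, 6.90 and 11.8 CPM at 24 h and 1.36, 1.5 and 0.872 CPM at 48 h (log2 fold change -2.46, SE 0.45, adjusted p = 0.000189), so that replicate 1 at 24 h lay close to the 48 h libraries. In the CTRL line it stood at 1765 to 2098 CPM in these libraries. The 24 h libraries of the inducible line thus held 0.0892, 0.385 and 0.66% of the CTRL mean at 24 h, and the 48 h libraries 0.0431 to 0.0739% of the CTRL mean at 48 h. MMP1, which had 2.39, 6.70 and 9.0 CPM at 24 h, 2.77, 2.81 and 2.44 CPM at 48 h and up to 1149 CPM in the CTRL line, followed the same order over the 24 h libraries (0.30, 0.842 and 1.13% of the CTRL mean), as did ANK3 (0.0892, 0.369 and 0.904%). These were all 3 genes with over 50 CPM in the CTRL line and under 2% of that in the inducible line. The difference of ALDH1A1 between the lines (-2.63) was lost in 9 of 12 fits that left out 1 library. The part of CTRL-line RNA in the decreases of ALDH1A1 and MMP1 was not tested.

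Of the 215 genes whose second day differed between the lines, 166 had a higher and 49 a lower change in the inducible line. With the size factors of DESeq2 in place of TMM, 176 passed, 118 higher and 58 lower, so the share of higher calls moved from 77.2% to 67.0%. Of the 3724 DEGs of the inducible line, 119 had an interaction call and 3605 (96.8%) had none, while 1.30% of all genes tested had a call. On simulated counts the interaction test recovered 37.8% of differences of 0.5 on the log2 scale, so a missing call does not show an equal change. Of the 166 genes with a higher change, 69 rose in the inducible line, and 103 fell in the CTRL line. The count ranged from 73 to 269 when 1 library was left out, lowest without replicate 2 of the CTRL line at 24 h (75 without its replicate 1). The lines already differed at 0 h, with KRT18 at 110 to 115 CPM in the inducible and 1130 to 1178 CPM in the CTRL line. Effects of the cDNA and of other differences between the lines cannot be told apart in these calls.

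**Figure D4:**
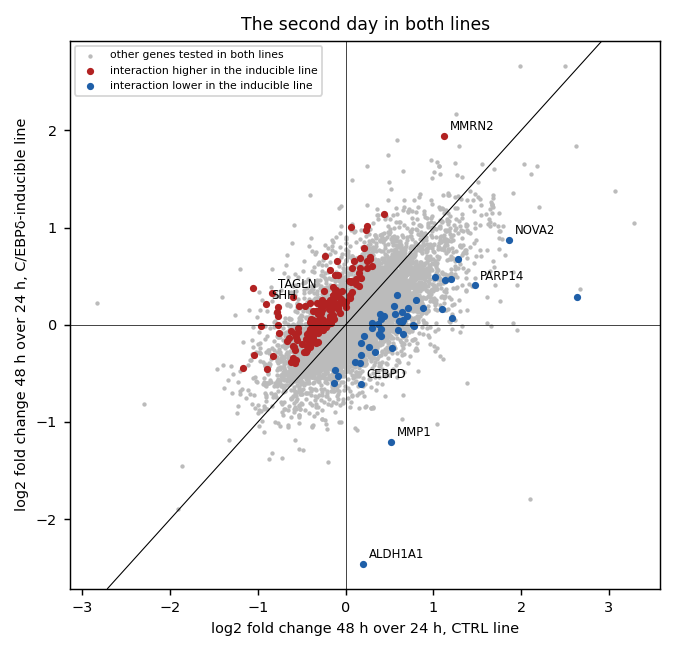
Log2 fold change, 48 h over 24 h, in the C/EBPδ-inducible line against the CTRL line for 14876 genes tested in both, with the diagonal of equal change and the genes with an interaction call in red (higher in the inducible line) or blue (lower). Across genes the 2 changes had a Pearson r of 0.687, and 103 of the 166 genes in the higher class, some not tested in both lines, fell in the CTRL line. KRT17 is absent because it was not tested in the CTRL line alone.

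Genes with the largest higher change, among those whose inducible-line libraries did not overlap, were named by rule. TAGLN, a calponin-related protein of actin bundles (ENSG00000149591, chromosome 11, 117199370 to 117207464), was 12.6, 12.2 and 12.7 CPM at 24 h and 16.9, 15.3 and 15.5 CPM at 48 h in the inducible line and fell by 0.84 in the CTRL line, a difference of 1.20 (adjusted p = 5.63e-05). SHH, the hedgehog ligand, was 22.8, 17.4 and 21.2 CPM at 24 h and 24.3, 24.6 and 23.0 CPM at 48 h, which did not pass (0.21, adjusted p = 0.0472), and fell by 0.91 in the CTRL line (difference 1.16, adjusted p = 4.76e-05). The long non-coding RNA UCA1 had the same form, with 0.29 (lost in 3 of 6 fits that left out 1 library) against -0.61. Other genes rose in the inducible line with no call in the CTRL line. ADAMTS4, an aggrecanase, was 12.9, 12 and 13.6 CPM at 24 h and 24.6, 26.5 and 27.6 CPM at 48 h, against a mean of 20.3 CPM at 24 h and 20.8 CPM at 48 h in the CTRL line (difference 0.98, adjusted p = 1.22e-05).

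PTGES, the inducible prostaglandin E synthase, was 16.1, 13.7 and 14.9 CPM at 24 h and 29.4, 33.3 and 28.7 CPM at 48 h, a rise of 1.02 beside 0.24 in the CTRL line (difference 0.82, adjusted p = 0.00223). MMRN2 rose in both lines, by 1.94 and 1.13, with a difference of 0.85 (adjusted p = 0.00602). S100A5, a small calcium-binding protein, differed by 0.98 (adjusted p = 0.00995). The differences for S100A5, MMRN2, PTGES and KRT17 were lost in 11, 10, 4 and 4 of 12 fits that left out 1 library.

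Under the same rule, the genes with the largest lower change, apart from ALDH1A1 and CEBPD, rose less than in the CTRL line or fell. PARP14, an interferon-induced ADP-ribosyltransferase, was 8.88, 9.37 and 8.47 CPM at 24 h and 11.1, 12.4 and 12.3 CPM at 48 h, a rise of 0.41 against 1.47 in the CTRL line (difference -1.03, adjusted p = 0.0001). The splicing factor NOVA2 rose by 0.88 against 1.86, APOL6, another interferon-induced gene, by 0.47 against 1.20, and PBXIP1 by 0.46 against 1.13. FBXL19-AS1, whose exons overlap those of FBXL19 on the other strand, and CENPT, a kinetochore protein, fell by 0.24 and 0.28 in the inducible line and rose by 0.52 and 0.33 in the CTRL line. The inducible-line calls of FBXL19-AS1 and PARP14 were lost in 6 and 2 of 6 fits that left out 1 library.

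**Figure D5:**
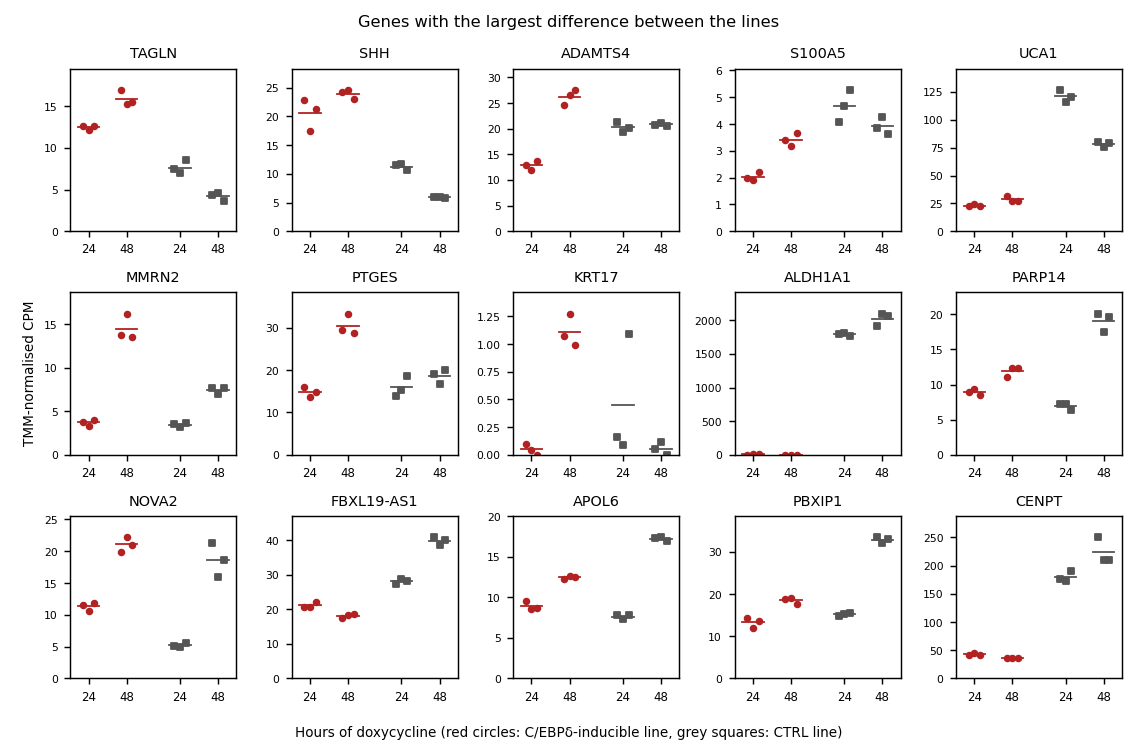
Levels in each library (TMM-normalised CPM, axes from 0) at 24 h and 48 h in both lines, as in the plot of members by library, for the genes named by rule for their difference between the lines, other than CEBPD. The rule took only genes whose inducible-line libraries did not overlap, so larger differences, such as those of ID2 and MMP1, are not shown. TAGLN, SHH and UCA1 fell in the CTRL line and did not fall in the inducible line, ADAMTS4 and PTGES were called higher in the inducible line and not called in the CTRL line, PARP14, NOVA2, APOL6 and PBXIP1 rose more in the CTRL line, and 1 CTRL library carries KRT17 at 24 h.

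The first hours of induction, 8 h against 0 h in the same line, share no library with the second day and called 4693 of 15395 genes (30.5%). Of the DEGs of the second day, 1437 were called in the same direction there (38.6% of the second-day DEGs and 30.6% of the early ones) and 415 in the opposite one. Beside this, the Spearman correlation of the log2 fold change with the GC content of the gene, across protein-coding genes that are not independent of each other, was -0.544 for the early hours and -0.169 for the second day, and its part in the overlap was not tested. The histones fell in both, at 41 of 41 tested early and 40 of 43 on the second day. The cholesterol list rose at 3 and fell at 8 members early and rose at 14 on the second day. TRIB3 rose by 1.83 early and by 0.50 on the second day, and VEGFA by 1.10 and 0.42. CDH1 rose in both, from 0, 3 and 4 counts at 0 h to 4.40, 3.61 and 6.07 CPM at 8 h, and then from the 24 h level of 1.40, 2.14 and 1.74 CPM, which lay below every 8 h library, to 4.80, 2.29 and 4.13 CPM at 48 h.

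The strand setting of the counting is not given in the sources used here, and 84 of the 238 genes named by rule have an exon that overlaps an exon of a gene on the other strand. KRT17, CDH1, HMGCS1, VIM, VCL and TAGLN are among them, KRT18 and SREBF2 have such a partner too, and reads of such partners cannot be told apart without the strand.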

How the data were processed

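RNA of 24 libraries was depleted of ribosomal RNA and sequenced. The deposited table holds raw counts per Ensembl gene (60675 rows), which the authors made from reads trimmed with Trimmomatic 0.36, aligned to GRCh38 with HISAT2 (the submitters' processing notes give version 2.3.4.3) and counted with HTSeq. The study's methods name an Ensembl release for the alignment and give other versions of Trimmomatic and HISAT2 than these notes, and the strand setting of the counting is not given in the sources used here. Gene names, exons and coordinates were taken from GENCODE 44 on GRCh38, which matched 56558 identifiers, and promoter stretches from the RefSeq table of GRCh38.p14.

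Groups came from the labels. The counts of the 6 libraries of a comparison were filtered with filterByExpr, normalised with TMM and tested with edgeR 4.0.16 in R 4.3.3 by the quasi-likelihood F test, with Benjamini-Hochberg adjustment over all genes tested and an FDR of 0.01. The interaction was fitted on the 12 libraries of both lines at 24 h and 48 h. An exact permutation test of 3 against 3 libraries cannot go below 0.1 and was not used. A gene with at most 3 counts in every library of a group was taken as at the floor. Replicate libraries differed by more than sampling noise (chi-square per gene 1.66 to 8.36). On simulated counts (15416 genes, 200 changed less those filtered out), the test of the inducible line recovered 62.2% of changes of 0.5 and 83.8% of changes of 1 on the log2 scale with 4 false calls, and the interaction test (16147 genes) recovered 37.8% and 71.7% with 1 false call. The simulation changed far fewer genes than the 23.8% called in the inducible line, so its rates need not hold for that comparison.

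The 41 gene lists and the named genes were chosen with earlier results of these data known. Genes were named by rule as the C/EBP family, the 15 largest called changes in each direction with libraries that did not overlap and at least 1 CPM in the higher group, up to 5 called members of each list with the largest change, the 8 largest interactions in each direction under the same conditions, and the migration and (adapted) epithelial-mesenchymal panels of the study. Other members, and KRT5, KRT6A, KRT14, DSG3 and CDH3, were picked out after their values were seen. Alternatives were DESeq2 1.42.0, RLE size factors, testing unfiltered genes, requiring 10 counts per library, a fit to all 24 libraries, a block for the replicate number, an analysis of variance of each gene on log2(CPM + 1), an FDR of 0.05 and leaving out each library. Results for some members of the lists are not reported here.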

Additional observations from a re-analysis of the deposited data

Results flagged for a closer look

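A gene is given here because its change over the second day differed between the inducible line and the CTRL line by the interaction test of edgeR at an adjusted p under 0.01, and 215 genes did so in all. Values are differences of log2 fold changes, inducible line minus CTRL line, over 12 libraries.

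Among genes of the cytoskeleton, adhesion and matrix, the differences were 1.20 for TAGLN, 0.422 for VCL, -0.396 for MYPN, 0.464 for PLAU, 0.981 for ADAMTS4, 0.853 for MMRN2 and -1.69 for MMP1, which stands beside the CTRL-line values of MMP1 given above. Among metabolic and stress genes they were 0.458 for HMGCS1, -0.427 for CPT1A, -0.45 for PLIN2, 0.355 for HK2, 0.226 for HSPA8, 0.21 for HSP90AA1, 0.563 for MT2A, 0.418 for TFRC and 0.817 for PTGES. Among transcription factors and signalling genes they were -0.744 for CEBPD, 0.38 for EGR1, 0.482 for FOSL1, 0.364 for KLF6, 0.442 for SOX9 and 1.16 for SHH. Interferon-induced genes lay on the lower side, with -0.564 for IFITM1, -1.03 for PARP14 and -0.694 for APOL6. The others were 0.98 for S100A5, 0.928 for UCA1, -0.95 for NOVA2, -0.725 for FBXL19-AS1, -0.636 for PBXIP1, -0.574 for CENPT, -2.63 for ALDH1A1 and 7.33 for KRT17. The value of KRT17 depends on counts near 0 and on 23 counts in 1 CTRL library at 24 h, so it is no measure of size.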

How the results depend on the processing

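No named gene that passed its test changed sign under an alternative. Of those that did not pass, EGFR (-0.101 to 0.0833), NET1 (-0.00339 to 0.0481), CEBPZ (-0.0193 to 0.0234) and SDC1 (-0.0282 to 0.0639) took both signs when 1 library was left out. Lower calls outnumbered higher ones in the inducible line (1888 against 1836), but higher ones did with all 24 libraries (1584 against 1483) and at an FDR of 0.05 (2738 against 2694), and in the CTRL line 1880 higher and 1741 lower calls became 1625 and 1920 under DESeq2 and 1745 and 1941 under RLE. For the inducible line, the 3724 DEGs became 24 by the analysis of variance and 2448 to 3629 when 1 library was left out, and stayed within 1.5 times under DESeq2 (3092), RLE (3709), no filter (4029), 10 counts in every library (3750), all 24 libraries (3067) and an FDR of 0.05 (5432). The CTRL line had 858 by the analysis of variance, 5692 at an FDR of 0.05 and 2223 to 4867 with 1 library left out. The interaction gave 410 without a filter, 98 by the analysis of variance, 518 at an FDR of 0.05 and 73 to 269 with 1 library left out. The CEBPD change was -0.604 by the analysis of variance (adjusted p = 0.0131). With the replicate block the counts were 4316 in the inducible line, 3195 in the CTRL line, 248 for the interaction and 5053 for the early hours. The labels do not say that a replicate number marks a shared culture or day, and same-numbered libraries of the inducible line deviated together with a mean correlation of 0.031 (-0.0277 to 0.0911), so the numbers were not taken to pair the samples. Of the genes named in the inducible line, DESeq2 kept 212 results on their side of the threshold and lost 18, and the analysis of variance kept 25 and lost 208. The causes were not tested. Depth limits genes under about 1 CPM, such as KRT13, PLAT and CDH5, where few counts carry the value.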

Other observations

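Several smaller gene groups were not described above. In the lysosome and autophagy list, 8 of 26 genes fell and 2 rose over the second day in the inducible line (edgeR, median log2 fold change -0.04), among them the ion channel MCOLN1 (-0.30, a call lost in 4 of 6 fits that left out 1 library), LAMP1 (-0.25) and the autophagy receptor SQSTM1 (-0.24), while in the CTRL line 6 rose and 3 fell. The protease CTSB differed between the lines by -0.58. Of 19 tested NRF2 targets and AKR1C reductases, 6 fell and 4 rose. AKR1C1, a ketosteroid reductase whose reads may be shared with AKR1C2, was 753, 743 and 743 CPM at 24 h and 549, 523 and 531 CPM at 48 h (-0.50, adjusted p = 4.34e-10), and the haem oxygenase HMOX1 fell by 0.54. In the iron list 4 of 10 rose and 2 fell, with the ubiquitin ligase subunit FBXL5 at 0.36 and the transferrin receptor TFRC at -0.22. Of 14 metallothionein and zinc genes, 2 rose and 2 fell (14.3% each), near the 11.7% and 12.1% of all genes tested. MT2A was 270.3, 265 and 266 CPM at 24 h and 346, 356 and 358 CPM at 48 h (0.39, adjusted p = 2.03e-08).

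Of the 16 tested clock genes, DBP (0.63), BHLHE40 (0.54) and NPAS2 (0.49) rose and PER2 (-0.43) and CRY1 (-0.32) fell. The shares were 18.8% higher and 12.5% lower, beside 11.7% and 12.1% of all genes tested. In the CTRL line 3 of 15 clock genes rose and 0 fell. The calls of NPAS2 and CRY1 were each lost in 1 of 6 fits that left out 1 library. Of 11 Krüppel-like factors, KLF9 (0.67), KLF13 (0.35) and KLF6 (0.20) rose and KLF4 (-0.66) and KLF16 (-0.30) fell, against 2 and 2 of 11 in the CTRL line. Mitochondrially encoded protein genes rose at 4 of 13 members in the inducible line (median 0.08) and at 10 of 13 in the CTRL line (median 0.34, 1 lower), and their share of counts went from 2.59 to 2.87% at 24 h to 2.81 to 3.22% at 48 h in the inducible line. Both detected members of the pancreatic list, SOX9 and KRT19, rose. Of 1651 long non-coding RNA genes tested, 73 rose and 36 fell, a smaller share in each direction than the 11.7% and 12.1% of all genes tested. Of 11800 protein-coding genes, 1725 rose and 1777 fell.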
